A study of Caenorhabditis elegans with 2 samples.

Results

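The 535 regions described here are strong intronic candidate binding regions of the C34B4.2 protein in Caenorhabditis elegans larvae. They were taken from the pooled list of 30000 candidate regions that the authors deposited. Candidates were ranked by pooled signal, and those of ranks 1 to 3000 that lay outside the X chromosome were kept, which left 2701 strong autosomal candidates. A candidate was intronic where its summit, the base of highest pile-up, lay inside a protein-coding gene and in no protein-coding exon. The summit also had to lie outside every promoter window, which reached 1000 bp upstream and 200 bp downstream of each protein-coding transcript start. The 535 intronic regions were 19.8% of the strong autosomal candidates (95% Wilson interval 18.3 to 21.4), beside 23% of all autosomal candidates on the list. Pooled signal chose these regions, so pooled signal is described here and supports nothing. Strong means a pooled rank of 3000 or better, not a significant peak.

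The study was a chromatin immunoprecipitation and sequencing experiment (ChIP-seq), which sequences the DNA crosslinked to a protein. Its single group was strain OP552, with the genotype unc-119(tm4063) III; wgIs552, in which a stable transgene expresses C34B4.2 with a GFP and FLAG tag at its C terminus. Whole L1 larvae of both sexes were pooled, 6 h after synchronization of starved hatchlings, and there were 2 biological replicates. The sample descriptions name an anti-GFP antibody, while the antibody label names C34B4.2. Every animal carried the transgene and the unc-119 allele, and no other genotype, stage or untagged strain was compared. A control library stood behind each candidate list. Chromatin of all cell types was mixed, so a region bound weakly in many cells and a region bound strongly in few cells cannot be told apart. The level of the tagged protein was not measured here.

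The introns of worm genes hold several kinds of regulatory DNA. Some act as enhancers or as starts of shorter transcripts of the host gene, and others are promoters of small RNA genes that lie inside the intron. Small nucleolar RNAs (snoRNAs) guide the chemical modification of ribosomal RNA, small nuclear RNAs (snRNAs) act in splicing, microRNAs repress messenger RNAs, and transfer RNAs carry amino acids to the ribosome. Many worm snoRNA genes that lie in introns have a promoter of their own.

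Sequences at small RNA genes are shown first, because most summits there lay just upstream of the RNA gene. The 6 windows were picked from the 8 of 26 regions at small RNA genes that hold at least 1 of the words in capitals. Each window below reaches 50 bp to either side of a summit and is given 5′ to 3′ on the strand of the small RNA gene, in lower case, from the RefSeq assembly WBcel235 (the ce11 build). Capitals mark the words TGTCGG and ACCCGC, on either strand. Both words were chosen after these windows had been seen.
ZK994.7 in pxn-1, chrV:8500499-8500599, plus strand: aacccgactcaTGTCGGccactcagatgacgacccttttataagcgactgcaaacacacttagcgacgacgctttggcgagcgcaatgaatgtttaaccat
sup-6 in F58G1.7, chrII:12944914-12945014, minus strand: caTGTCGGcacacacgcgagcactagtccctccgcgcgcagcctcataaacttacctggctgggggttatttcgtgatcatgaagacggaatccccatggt
R07E5.16 in dhc-4, chrIII:10989600-10989700, plus strand: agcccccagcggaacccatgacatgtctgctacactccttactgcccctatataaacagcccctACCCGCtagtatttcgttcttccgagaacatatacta
F01D5.12 in F01D5.10, chrII:14018458-14018558, minus strand: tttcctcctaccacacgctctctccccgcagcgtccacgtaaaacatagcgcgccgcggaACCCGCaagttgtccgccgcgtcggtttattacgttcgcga
C16D9.11 in rol-3, chrV:8228982-8229082, minus strand: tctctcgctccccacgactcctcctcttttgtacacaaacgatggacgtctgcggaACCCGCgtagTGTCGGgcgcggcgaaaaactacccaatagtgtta
W04D2.7 in inx-11, chrV:12491176-12491276, plus strand: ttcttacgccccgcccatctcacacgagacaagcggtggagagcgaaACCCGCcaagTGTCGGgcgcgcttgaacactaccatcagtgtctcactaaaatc
The windows at C16D9.11 and W04D2.7, snoRNA genes in different hosts, each held ACCCGC followed by TGTCGG. The word TGTCGG lay within 50 bp of the summit in 29 of 535 intronic regions (5.42%, interval 3.80 to 7.68). It lay in 4.02% of the windows centred 300 bp to either side of the same summits. Of the 189607 windows of the same length that tile all eligible introns, 2.86% held it. The flanking windows, here and below, were not confined to introns. The median summit lay 211 bp from the nearer end of its intron. ACCCGC lay at 20 summits (3.74%, interval 2.43 to 5.70), in 1.31% of flanking windows and in 0.859% of the tiles. Regions at small RNA genes, whose windows were seen before the words were chosen, supplied 6 of these 20 summits and 5 of the 29 with TGTCGG. The shares are therefore a description. Strong candidates of other classes held these words too. TGTCGG lay at 2.56% of divergent promoter, 5.02% of 1-strand promoter, 4.61% of intergenic and 3.28% of exonic summits. For ACCCGC these shares were 4.10%, 2.99%, 1.61% and 0.713%.

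A different set of summits carried the 6-mer ACGCAG, which was singled out with earlier results on the whole candidate list known. The windows below are on the plus strand, 50 bp to either side of the summit, with ACGCAG or its reverse complement in capitals. They are shown because they span the strongest and the middle of the ranking.
Y111B2A.12, chrIII:12612604-12612704, plus strand: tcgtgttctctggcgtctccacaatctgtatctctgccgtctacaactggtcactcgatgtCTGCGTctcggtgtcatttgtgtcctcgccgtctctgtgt
epg-9, chrIV:2602135-2602235, plus strand: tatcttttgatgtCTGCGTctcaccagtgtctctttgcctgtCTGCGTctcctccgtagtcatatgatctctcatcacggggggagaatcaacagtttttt
T21H3.5, chrV:1158490-1158590, plus strand: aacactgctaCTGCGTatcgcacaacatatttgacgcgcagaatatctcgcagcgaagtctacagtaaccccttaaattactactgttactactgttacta
sea-2, chrII:3958789-3958889, plus strand: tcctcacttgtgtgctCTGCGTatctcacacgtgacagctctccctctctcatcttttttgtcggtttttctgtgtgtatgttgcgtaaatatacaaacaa
jun-1, chrII:9113960-9114060, plus strand: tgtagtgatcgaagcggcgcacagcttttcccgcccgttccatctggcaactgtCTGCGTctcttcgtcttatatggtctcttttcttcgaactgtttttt
spop-1, chrIII:10096710-10096810, plus strand: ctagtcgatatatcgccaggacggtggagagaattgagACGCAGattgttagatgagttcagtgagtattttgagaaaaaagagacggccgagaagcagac
lag-1, chrIV:6097625-6097725, plus strand: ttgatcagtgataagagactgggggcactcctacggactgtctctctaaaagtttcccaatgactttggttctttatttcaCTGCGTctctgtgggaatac
In Y111B2A.12, epg-9, jun-1 and lag-1 the capitals read CTGCGT and are followed by ctc, which is the reverse complement of the longer word GAGACGCAG. The spop-1 window holds that longer word in the forward direction, and those of T21H3.5 and sea-2 hold the 6-mer alone. The txt-19 window, not shown, also holds the 6-mer without the longer word. In the whole set, 9 of the 15 regions with ACGCAG held the longer word. The longer word was chosen after the windows had been seen.

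The regions of ranks 66 and 94, both on chromosome III, held neither ACGCAG nor a small RNA gene. They are shown as strong regions without these features, and their windows carry no capitals.
pqn-41, chrIII:1921325-1921425, plus strand: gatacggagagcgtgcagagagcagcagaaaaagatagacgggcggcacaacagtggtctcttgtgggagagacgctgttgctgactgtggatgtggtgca
Y56A3A.7, chrIII:11946485-11946585, plus strand: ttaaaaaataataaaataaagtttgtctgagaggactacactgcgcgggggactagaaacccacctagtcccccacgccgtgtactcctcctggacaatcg
These windows were in pqn-41, which encodes a glutamine-rich protein known from programmed death of the linker cell, and in Y56A3A.7.

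Along the ranking, introns were least common among the strongest candidates. Introns held 21 of the 249 autosomal candidates of ranks 1 to 267 (8.43%, interval 5.58 to 12.5). They held 125 of 659 at ranks 268 to 1000 (18.97%) and 389 of 1793 at ranks 1001 to 3000 (21.7%). Below rank 3000 the share lay between 22.7% and 23.6% in each of 4 further groups of ranks. Introns that satisfy the position rule make up 22.6 Mb, or 27.3% of the autosomal bases. The 535 regions came to 23.7 per Mb of such intron, against 32.7 strong candidates per Mb over the whole autosomes.

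**Figure D1:**
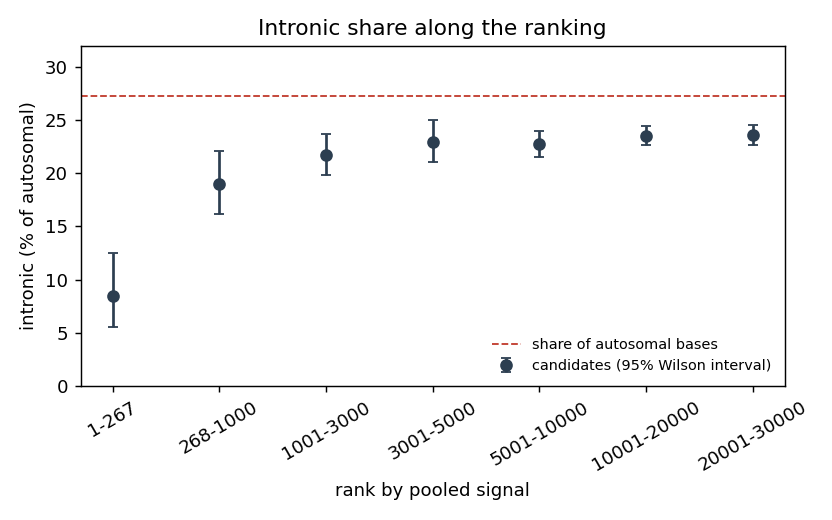
Percentage of autosomal candidates with an intronic summit (vertical axis) in 7 groups of pooled rank (horizontal axis); points are shares, bars are 95% Wilson intervals, and the dashed line is the share of autosomal bases that satisfy the position rule. The share is 8.43% in ranks 1 to 267 and between 18.97% and 23.6% in all later groups, and every point lies below the line at 27.3%.

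Pooled signals of the 535 regions lay between 69.3 and 341, on the scale of the deposited list, and their median was 76.6. High values were few, since the median was 140 at ranks 1 to 267, 90.2 at ranks 268 to 1000 and 74.5 at ranks 1001 to 3000. The deposited −log10 q ran from 0.188 to 2.10, with a median of 0.206 and an upper quartile of 0.224. A low −log10 q means a large q, so most of the 535 regions would fail a usual false-discovery limit. On the filtered list described below it fell as low as 0.529, in Y17D7C.6. The last regions inside rank 3000 lay in dhs-23, a short-chain dehydrogenase gene, with a signal of 69.36, in T28D6.6 and in spl-1, the sphingosine phosphate lyase gene, at 69.35. The first intronic candidates outside it lay in srw-133, fmil-1 and igeg-1, at 69.32 to 69.31, so the limit falls within a continuous run of signals.

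The authors also deposited a list filtered by the irreproducible discovery rate (IDR), a measure of how well the ranks of peaks repeat between replicates. It held 267 peaks, and these were ranks 1 to 267 of the pooled list. A place on this list does not mean that the ranks of a given region repeat. The weaker of 2 gei-4 regions on it had rank 121 in replicate 1 and 7985 in replicate 2. The 21 intronic regions on it were 3.93% of the 535 (interval 2.58 to 5.93), beside 0.89% of all candidates. Since both the list and the rule rank by pooled signal, this share is a description. The same share was 36.4% of 195 strong candidates in promoters shared by divergent genes and 14.2% of 836 in promoters on 1 strand. It was 6.68% of 434 intergenic and 1.28% of 701 exonic strong candidates.

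Most intronic regions had a candidate in both replicates, but fewer had one at the same place to within 50 bp. An overlapping candidate was present in both replicates for 493 of the 535 regions (92.1%, interval 89.6 to 94.1), beside 39.9% of all candidates. Overlap meant at least 1 bp of peaks 370 bp wide, and with replicate summits within 50 bp the share was 54.2% (interval 49.97 to 58.4). By overlap, another 35 had one in replicate 1 alone and 7 in replicate 2 alone. The pooled ranking used the reads of both replicates, so this share is not independent of the rule. In the other position classes it ran from 89.6% of intergenic to 94.4% of divergent promoter candidates. A rank of 3000 or better in the replicate's own list was held by 267 of the regions in replicate 1 (49.9%, beside 10.3% of all candidates). In replicate 2 it was held by 237 (44.3%, beside 9.95%). Both replicates placed 90 regions that high (16.8%, interval 13.9 to 20.2), beside 2.22% of all candidates. The share was 45.1% in divergent promoters, 26.9% in promoters on 1 strand, 16.8% in intergenic and 10.1% in exonic strong candidates. By pooled rank, 20 of the 21 regions on the filtered list ranked 3000 or better in both replicates. So did 54 of 125 at ranks 268 to 1000 (43.2%) and 16 of 389 at ranks 1001 to 3000 (4.11%).

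Signals in replicate 1 ran from 25.4 to 196 with a median of 44.3 (n = 528), and those in replicate 2 from 20.2 to 132 with a median of 35.1 (n = 500). Across 493 regions, the median log2 ratio of replicate 1 over replicate 2 was 0.32, with an SD of 0.55. Over all candidates found in both replicates the SD was 0.44. A ratio above 2-fold in either direction was seen at 56 regions, 55 of them higher in replicate 1 and 1 higher in replicate 2 (11.4%). Over all candidates found in both replicates it was seen at 615 of 11973 (5.14%), 586 of them higher in replicate 1. Their median log2 ratio was 0.29. Strong candidates of the other classes were like the intronic ones. Their shares above 2-fold ran from 10.9% in divergent promoters to 12.9% between genes, and their SDs from 0.55 in exons to 0.61 in divergent promoters. The depth of neither replicate is known, and whether it differs between them was not tested.

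**Figure D2:**
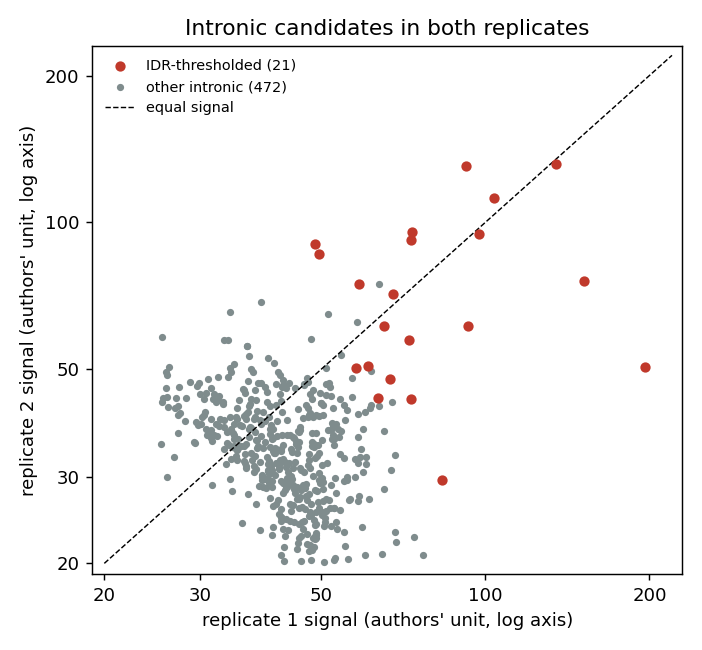
Signal of each intronic region in replicate 1 (horizontal axis, log scale, authors' unit) against replicate 2 (vertical axis, log scale, authors' unit), for the 493 regions with a candidate in both; red points are on the IDR-thresholded list and the dashed line marks equal signal. The 21 red points reach 196 in replicate 1 and 132 in replicate 2, and the grey cloud lies mostly below 70 in replicate 1.

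The strongest intronic region of all lay in intron 4 of ppfr-1, which encodes a regulatory subunit of protein phosphatase 4, with its summit at position 9383156 of chromosome I and pooled rank 24. Replicate 1 gave it a signal of 196 and replicate 2 one of 50.5, and the pooled list 341. Soft masking, the assembly's mark for repeats, covered 66.3% of the bases within 50 bp of its summit, and 49.4% of the 36-base words around it occurred once in the genome. The next lay in intron 5 of F58G1.7, 202 bp downstream of the start of sup-6, which is annotated as an snRNA gene. It reached 135 in replicate 1 and 132 in replicate 2. A second region in the same intron, at rank 143, had its summit 3 bp downstream of the start of sup-6, with 48.7 in replicate 1 and 90.3 in replicate 2. Their summits lay less than 200 bp apart, so their peaks overlap.

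At the next 5 regions without a small RNA gene the replicates differed by less than 2-fold. The region in intron 14 of pqn-41 had 92.0 in replicate 1 and 130 in replicate 2. Y111B2A.12, in intron 4, had 103.7 in replicate 1 and 112.4 in replicate 2. Y56A3A.7, in intron 3, had 97.2 in replicate 1 and 94.6 in replicate 2. K01F9.2 had 73.5 in replicate 1 and 95.5 in replicate 2. The region in intron 2 of epg-9, an autophagy gene, had 73.03 in replicate 1 and 91.9 in replicate 2. None of these 5 lay near an annotated non-coding gene, and those of Y111B2A.12 and epg-9 held ACGCAG.

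The rest of the 21 spread over genes of mixed function. The second pqn-41 region had 92.9 in replicate 1 and 61.3 in replicate 2. The Y67D8A.2 region had 65.3 in replicate 1 and 61.3 in replicate 2, and lay upstream of the nearest start of that gene. A pair of regions lay in the first intron of gei-4, whose product was named for binding the GEX-3 protein of the actin regulatory complex. The first had 49.5 in replicate 1 and 86.2 in replicate 2. The second had 83.4 in replicate 1 and 29.7 in replicate 2, a ratio above 2-fold. R107.5, T21H3.5, Y37D8A.16 and Y17D7C.6 had pooled signals of 122, 118, 115 and 113. The strongest regions beyond the filtered list lay in Y47D3B.4, at 112.03, in ccch-1, a zinc finger gene, at 111.6, and in C14B4.2, at 109.9.

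Small RNA genes lay close to 26 of the 535 summits, that is, within 200 bp of a snoRNA, snRNA, microRNA, tRNA or rRNA gene (4.86%, interval 3.34 to 7.03). Such positions make up 0.593% of the eligible intronic bases. Beside this, 4.10% of divergent promoter, 3.95% of 1-strand promoter, 4.84% of intergenic and 1.71% of exonic strong candidates lay as close to a small RNA gene. By rank, 6 of 21 regions on the filtered list did (28.6%, interval 13.8 to 49.96), 12 of 125 at ranks 268 to 1000 (9.60%) and 8 of 389 at ranks 1001 to 3000 (2.06%). By class, 14 summits were at snoRNA genes, 4 at snRNA, 5 at microRNA, 3 at tRNA and 0 at rRNA genes. The snoRNA positions make up 0.205% of the eligible bases. With a single RNA gene assigned to each summit, the 26 summits belonged to 25 small RNA genes. Some summits had a further small RNA gene within 200 bp, as in frm-7 and F49D11.10.

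Most of these summits lay just before the RNA gene. Of the 26, 18 lay upstream of its start, at a median position of −63.5 bp and from −157 to −14 bp relative to it, and 14 of them lay within 100 bp. Another 5 lay inside the RNA gene and 3 beyond its end. Among the 14 snoRNA regions, 11 lay upstream. The RNA gene was on the strand of its host in 18 cases and on the opposite strand in 8.

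**Figure D3:**
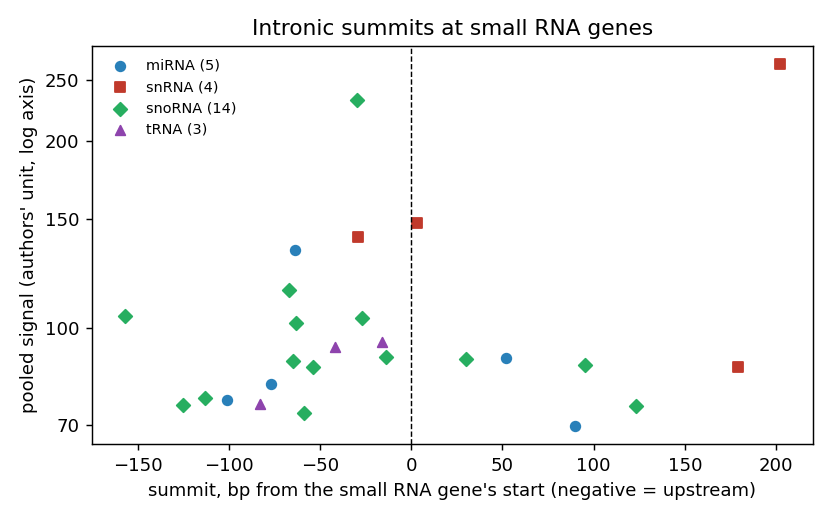
Position of 26 intronic summits relative to the start of the small RNA gene within 200 bp (horizontal axis, bp, negative upstream) against pooled signal (vertical axis, log scale, authors' unit), by class of RNA gene. Of the 26 points, 18 lie left of the dashed line at the start, from −157 to −14 bp, and 14 are snoRNA genes.

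Among snoRNA genes, the strongest region lay 30 bp upstream of ZK994.7, in intron 17 of pxn-1, a peroxidasin gene of the extracellular matrix. It reached 152 in replicate 1 and 75.7 in replicate 2. The next was 67 bp upstream of F01D5.12 in F01D5.10, with 73.1 in replicate 1 and 43.5 in replicate 2. C16D9.11 lay in rol-3, a receptor tyrosine kinase gene, and its region had 36.61 in replicate 1 and 55.75 in replicate 2. W04D2.7 lay in the innexin gene inx-11, and the values of its region were close to these, 36.59 in replicate 1 and 55.85 in replicate 2. At C51F7.4, in frm-7, replicate 2 had 70.2 and replicate 1 had no candidate. The snoRNA regions therefore differed between replicates in both directions.

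Among snRNA genes besides sup-6, R07E5.16 lay in dhc-4, a dynein heavy chain gene, 29 bp downstream of a summit with 67.6 in replicate 1 and 71.3 in replicate 2. The strongest microRNA region lay 64 bp upstream of cel-mir-2 in ppfr-1, with 72.4 in replicate 1 and 57.3 in replicate 2. The next was inside cel-mir-229 in gcn-1, whose product acts in translational stress signalling, with 49.3 in replicate 1 and 35.05 in replicate 2. Regions at cel-mir-71, also in ppfr-1, and at cel-mir-58a, in Y67D8A.2, had pooled signals of 81.3 and 76.7. The strongest tRNA region, in the sugar transporter gene swt-5, had 55.8 in replicate 1 and 41.3 in replicate 2. The next, in F49D11.10, had 54.4 in replicate 1 and 37.3 in replicate 2.

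Seen from the RNA genes, 106 snoRNA genes lay wholly in eligible introns, and 12 of them had one of the 535 regions within 200 bp (11.3%, interval 6.60 to 18.8). The count was 3 of 44 snRNA, 6 of 55 microRNA and 4 of 151 tRNA genes (2.65%, interval 1.03 to 6.61). With the full candidate list, which includes background regions, it was 33.02% of snoRNA, 27.3% of snRNA, 27.3% of microRNA and 37.1% of tRNA genes. The tRNA genes had the highest share with any candidate and the lowest with a strong one, although the intervals of the strong shares overlap.

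Counting all non-coding genes except piRNA genes and pseudogenes, small RNA genes included, 57 summits lay within 200 bp of one (10.7%, interval 8.31 to 13.6), beside 3.45% of the eligible bases. It was 10 of 21 on the filtered list (47.6%, interval 28.3 to 67.6), 22 of 125 at ranks 268 to 1000 (17.6%) and 25 of 389 at ranks 1001 to 3000 (6.43%). The strongest of the other non-coding regions were at F16A11.7, in ppfr-1, and 31 bp upstream of rpr-1, the gene of the RNA part of ribonuclease P, in ints-8. ints-8 encodes a subunit of the Integrator complex, which processes snRNA ends. The rpr-1 region had 58.8 in replicate 1 and 74.8 in replicate 2. At piRNA genes there were 10 regions (1.87%, interval 1.02 to 3.41), beside 3.74% of the eligible bases.

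ACGCAG lay within 50 bp of 15 of the 535 summits (2.80%, interval 1.71 to 4.57). It lay in 12 of 1070 flanking windows (1.12%) and in 3446 of the 189607 tiles (1.82%). Among strong candidates of other classes the share was 11.8% in divergent promoters, 6.46% in promoters on 1 strand, 6.91% in intergenic and 2.00% in exonic ones. Within introns it was 3 of 21 on the filtered list (14.3%, interval 4.98 to 34.6), 4 of 125 at ranks 268 to 1000 and 8 of 389 at ranks 1001 to 3000 (2.06%). None of the 26 regions at small RNA genes held it, which allows a share of up to 12.9% by the Wilson interval. The longer word GAGACGCAG lay at 9 summits, in 2 of 1070 flanking windows and in 0.534% of the tiles. It lay at 22 of the 434 intergenic and at 0 of the 701 exonic summits.

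The 15 regions with ACGCAG lay in genes of mixed function. After Y111B2A.12, epg-9 and T21H3.5 came pde-6, a phosphodiesterase gene, with 51.5 in replicate 1 and 37.6 in replicate 2. sea-2, a zinc finger gene of sex determination, had 59.6 in replicate 1 and 30.8 in replicate 2. jun-1, an AP-1 transcription factor gene, had 42.5 in replicate 1 and 47.6 in replicate 2. tns-1, the tensin gene, had 46.5 in replicate 1 and 46.5 in replicate 2. spop-1, a ubiquitin ligase adaptor gene, had a candidate in replicate 2 alone, at 52.4. lag-1, the gene of the transcription factor of Notch signalling, had 50.1 in replicate 1 and 25.1 in replicate 2. The remaining regions lay in txt-19, Y56A3A.7, cyp-32B1, the overlapping genes gbb-2 and ZK180.7, let-363, which encodes the TOR kinase, and tcab-1.

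Over the whole set, excesses of 6-mers over the flanks were small, and that of ACGCAG was not among the largest. Of 2080 words, each counted with its reverse complement, the largest excess was 3.93 percentage points, for AATTAG, at 10.3% of summits and 6.36% of flanking windows. AAACGG lay at 39 summits (7.29%) and in 3.74% of flanking windows. TAGGCA lay at 36 (6.73%) and in 3.18%, CCCCTA at 27 (5.05%) and in 1.68%, and GGCAAA at 60 (11.2%) and in 7.94%. On the filtered list, the largest excess was that of ACACAC, at 6 of 21 summits and in 2 of 42 flanking windows.

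GC content at the summits was 40.4% ± 8.14 (SD, n = 535), against 37.2% ± 6.51 in the flanking windows and 32.5% ± 8.89 over the intronic tiles. The tiles lay within introns, whereas 117 summit windows reached past an intron end. Flanking windows, centred 300 bp away, often lay past one too, as the median summit was 211 bp from the nearer end of its intron. A summit window exceeded the mean of its own flanks at 343 regions (64.1%). By rank the mean was 51.1% on the filtered list, 42.1% at ranks 268 to 1000 and 39.3% at ranks 1001 to 3000. Regions at small RNA genes averaged 47.3% ± 9.16 (n = 26), and those with ACGCAG 45.6% ± 4.56 (n = 15). The means of other classes were 45.5% in divergent promoters, 42.97% in promoters on 1 strand, 43.9% in exons and 41.997% between genes. Mean GC content and the shares of summits with a small RNA gene or ACGCAG were all highest on the filtered list and lowest at ranks 1001 to 3000. The part of GC content or of the control library in the ranking was not tested.

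**Figure D4:**
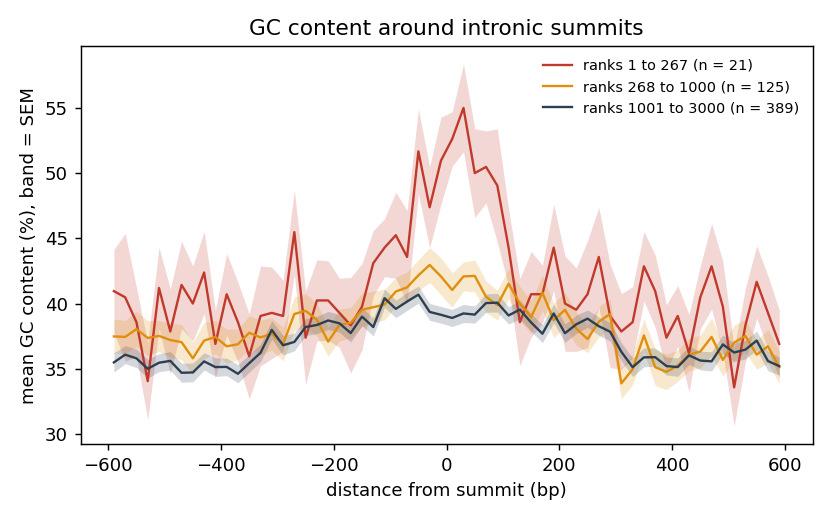
Mean GC content (vertical axis, %) in 20-bp bins by distance from the summit (horizontal axis, bp), for intronic regions in 3 groups of pooled rank; bands are the standard error of the mean over regions. The 21 regions of ranks 1 to 267 stand above the other 2 groups within about 100 bp of the summit, where windows of 50 bp to either side average 51.1%, against 42.1% and 39.3% in the groups of 125 and 389.

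Soft-masked bases were less common in the summit windows than in the intronic tiles. Soft masking covered a median of 30.7% of the bases at the 535 summits, against 57.4% of those in the intronic tiles. However, 117 summit windows reached past the end of their intron, whereas the tiles did not. The masked median was lower in every other class of strong candidates. It was 22.8% between genes, 19.8% in divergent promoters, 18.8% in promoters on 1 strand and 0% in exons. The part of exon sequence in the difference from the tiles was not tested. Every 36-base word around the summit occurred once in the genome at 443 regions (82.8%). That share was 97.4% in divergent promoters, 92.3% in promoters on 1 strand, 97.6% in exons and 82.9% between genes. Below 50% unique words there were 4 regions, the strongest ppfr-1 region among them. How the authors treated reads with several matches is not given in the sources used here.

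The host genes were many and mostly held 1 region each. The 535 regions fell in 482 protein-coding genes, of which 437 held 1, 34 held 2, 8 held 3, 1 held 4 and 2 held 5. Only 8 regions lay in introns of more than 1 gene. The share of genes that hosted a region followed the length of eligible intron. It was 0.522% of genes with up to 500 bp, 2.14% up to 2000 bp, 6.77% up to 5000 bp, 14.8% up to 10000 bp and 29.1% above that. Neither C34B4.2, the tagged gene, nor unc-119 held any candidate inside its gene body.

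The genes with 5 regions were ppfr-1 and Y67D8A.2. In ppfr-1 the 5 pooled signals were 341, 133, 85.6, 81.3 and 77.8, over introns 4 and 5. In Y67D8A.2 they were 128, 90.5, 84.0, 80.5 and 76.7. pqn-41 held 4, with 222, 150, 77.4 and 70.5. Each of these genes therefore held 1 or 2 regions well above the rest. Y56A3A.7 and crh-1, the gene of the CREB transcription factor, held 3 each, and in crh-1 they were 96.5, 77.9 and 74.4. The 3 crh-1 regions had 49.9, 53.1 and 42.2 in replicate 1 and 42.6, 27.8 and 34.03 in replicate 2.

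**Figure D5:**
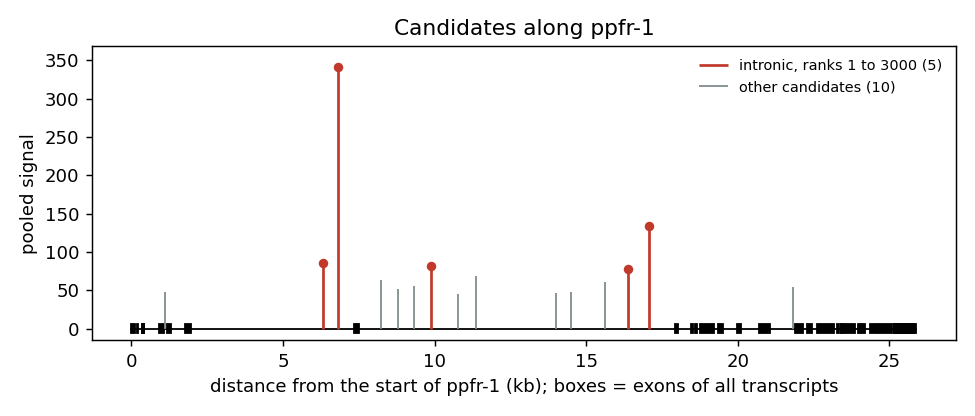
Pooled signal (vertical axis, authors' unit) of candidate summits along ppfr-1 (horizontal axis, kb from the gene start in its direction of transcription); boxes are exons of all transcripts, red stems are the 5 strong intronic regions and grey stems the other 10 candidates. The tallest red stem is at 341 and the next at 133, and every grey stem stays below 70.

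Grouped by function, transcription factor and kinase genes held regions at varied rates. Over all autosomal genes, 482 of 14841 with eligible intron hosted a region (3.25%), or 23.3 regions per Mb of eligible intron summed over these genes. Protein kinase genes of signalling pathways had 14 hosts among 68 genes, with 17 regions, or 50.4 per Mb (exact Poisson interval 29.3 to 80.6). Their strongest were unc-82, a muscle kinase gene, with 41.4 in replicate 1 and 42.3 in replicate 2, and par-1, a cell polarity kinase gene, with 69.7 in replicate 1 and no candidate in replicate 2. nsy-1, a MAP kinase kinase kinase gene, had 48.0 in replicate 1 and 35.5 in replicate 2. Zinc finger and bZIP factor genes had 7 hosts among 60, with 10 regions, or 54.8 per Mb (26.3 to 100.8). These were led by crh-1, jun-1 and sem-4, a spalt-type zinc finger gene with 45.2 in replicate 1 and 33.7 in replicate 2. Of the 10 regions, 3 lay in crh-1, and the interval counts regions of the same gene as independent.

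The other transcription factor lists had fewer regions and wide intervals. Genes of the bHLH class had 3 hosts among 31 and 5 regions, or 91.4 per Mb (29.7 to 213). The hosts were hlh-30, the TFEB gene of lysosome and autophagy control, and ngn-1 and hlh-2, genes of neurogenesis. The strongest hlh-30 region had 48.1 in replicate 1 and 37.04 in replicate 2. Of the 5 regions, 3 lay in hlh-30, and the interval counts regions of the same gene as independent. Forkhead, GATA, T-box, SOX and ETS factor genes had 6 hosts among 41, or 45.9 per Mb (16.9 to 99.98), led by egl-18, ast-1 and daf-16, the FOXO gene of insulin signalling. The egl-18 region had 44.997 in replicate 1 and 35.2 in replicate 2, and the daf-16 region had 64.3 in replicate 1 and no candidate in replicate 2. Nuclear hormone receptor genes had 8 hosts among 243, with 10 regions or 35.3 per Mb (16.95 to 65.0), led by nhr-34, nhr-105 and nhr-19. The nhr-34 region had 73.9 in replicate 1 and 22.7 in replicate 2, a ratio above 2-fold. Homeobox genes had 3 hosts among 76, ceh-34, zag-1 and ceh-32, or 21.2 per Mb (5.78 to 54.4).

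For each neuronal list and for muscle genes, the interval included the 23.3 per Mb of all genes. Synaptic release genes had 7 hosts among 38 and 38.7 regions per Mb (17.7 to 73.4), led by egl-8, a phospholipase C gene, unc-73, a GTPase exchange factor gene, and unc-64, the syntaxin gene. The unc-64 region had 42.3 in replicate 1 and 45.9 in replicate 2. Axon guidance and adhesion genes had 9 hosts among 61 and 20.9 per Mb (9.55 to 39.7), led by cdh-1, vab-10 and mig-22. Voltage-gated and leak channel genes had 4 hosts among 66 and 16.1 per Mb (5.90 to 34.99), led by twk-13, slo-1 and kcnl-1. Ligand-gated channel genes had 5 hosts among 78 and 20.8 per Mb (6.75 to 48.5), led by lgc-55, lgc-31 and lgc-37. Transmitter and peptide receptor genes had 6 hosts among 71 and 22.4 per Mb (8.23 to 48.8), led by frpr-5, npr-30 and npr-13. Muscle structure genes had 3 hosts among 49 and 22.4 per Mb (7.27 to 52.2), namely unc-89, pat-6 and pat-12.

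Among housekeeping genes and large gene families, host shares varied. Of 35 cytosolic ribosomal protein genes and 32 translation factor genes with eligible intron, 0 held a region, but these lists came to only 0.00411 and 0.0170 Mb of such intron. Respiratory chain genes had 1 host among 30, cox-6B. Chromatin and transcription regulator genes had 5 hosts and 21.1 per Mb (6.86 to 49.3), led by the Mediator gene mdt-4, the p300 gene cbp-1 and jmjd-2. Heat shock and chaperonin genes had 3 among 48, the J-domain genes dnj-1, dnj-20 and dnj-25, and 39.6 per Mb (8.17 to 116). Small GTPase and regulator genes had 3 among 55, tbc-14, tbc-17 and sos-1, and 10.5 per Mb (2.16 to 30.5). Chemoreceptor-type receptor genes had 10 hosts among 1301 and 12.2 per Mb (6.09 to 21.8), led by srw-85, srh-2 and sre-46. Collagen and cuticle genes and C-type lectin genes had 2 hosts each, and F-box genes and basement membrane genes 1 each. The mdt-4 region lay 65 bp upstream of the snoRNA gene ZK546.18. The regions of the cuticle host rol-3 and the basement membrane host pxn-1 also lay upstream of snoRNA genes.

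Position within the intron varied widely. The host introns ran from 42 to 19927 bp, with a median of 1055 bp. Introns above 5000 bp held 19.3% of the regions, or 35.7 per Mb (exact Poisson interval 29.1 to 43.3), against 21.3 per Mb (17.9 to 25.3) in introns up to 500 bp. First introns held 118 regions (22.1%, interval 18.7 to 25.8), beside 20.7% of eligible bases. The summit lay within 50 bp of the end of its intron at 117 regions (21.9%). Since each peak was 370 bp wide, 255 peaks also touched a protein-coding exon (47.7%) and 76 a promoter window (14.2%), while 259 lay wholly in eligible intron (48.4%).

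Distances to protein-coding starts varied widely, and starts of non-coding genes were not counted here. Relative to the nearest protein-coding start, the median summit lay 1049 bp downstream (quartiles 274 and 2158 bp), and 111 lay upstream of it. The position rule left out summits up to 1000 bp upstream of a start but only 200 bp downstream. The excess of downstream summits is therefore partly fixed by the rule. In all, 68 regions (12.7%) lay upstream of a start of their own host, in the intron of a longer transcript, and 3 of these were on the filtered list, in gei-4, pqn-41 and Y67D8A.2. Within 1 kb of a protein-coding start were 147 regions (27.5%), all downstream of it by the rule. More than 5 kb from every such start were 43 (8.04%).

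Densities on the autosomes lay between 21.5 and 28.2 per Mb. There were 22.3 regions per eligible Mb on chromosome I, 21.5 on II, 28.2 on III (exact Poisson interval 23.5 to 33.6), 24.5 on IV and 21.99 on V. The distal parts of the chromosomes, outside the middle of 3 equal lengths, had 24.5 per Mb and the middle 21.6. With 1 group and 2 replicates, no test between conditions was possible, and all intervals cover counting error only.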

How the data were processed

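ChIP-seq candidate lists of 2 replicates and of both pooled, and 1 IDR-thresholded list, all in the ce11 build, were used. The authors deposited a non-negative signal for each candidate, in a unit of their own. They also deposited a −log10 q, which was only summarised, and the distance in bases between peak start and summit. The peak caller, the aligner, the IDR threshold, the depth normalization and the read depth were not given in the sources used here, so the precision of a single signal is unknown. Lists in the ce10 build were not used.

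Summits were placed on Ensembl release 115 genes and the RefSeq WBcel235 genome, the assembly that ce11 names. A replicate matched where its candidate overlapped the pooled one by at least 1 bp, the nearest summit being used. Intervals for shares are 95% Wilson intervals, and those for rates per Mb exact Poisson intervals. They cover counting error only. With 1 group there was no comparison between groups and no p-value. Named genes were the hosts of the 20 strongest regions, the 5 with most regions, the 3 strongest of each gene list that held 3 or more, the 2 strongest at each class of non-coding gene, those beside rank 3000, and the 5 6-mers with the largest excess over the flanks. Others were named after their values were seen, as were the words that the text says so of. The regions, gene lists and 6-mer ACGCAG were chosen with earlier results of these data known. Windows were computed with Python 3.11.15, numpy 2.4.6, pandas 2.3.3 and scipy 1.17.1. The position classes and word counts were tested on simulated data. The 55 alternatives changed the promoter window, the rank limit, the merging of near summits, the replicate used, the overlap, the window and the definition of a first intron.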

Additional observations from a re-analysis of the deposited data

How the results depend on the processing

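Of 55 alternative values, 18 moved. The other 37 stayed within the interval or spread of the reported value or, for the number of regions, within 1.5 times of it. A promoter window of 500 bp upstream and 100 bp downstream gave 653 regions, an intronic share of 24.2% and a first-intron share of 26.5%, and one of 2000 bp upstream and 500 bp downstream gave 374 regions, 13.8% and 16.3%. With ranks 1 to 1500 there were 241 regions, an intronic share of 17.7%, 97.1% in both replicates, 8.71% on the thresholded list, a GC content of 42.2% and 7.88% at small RNA genes. Leaving out each replicate in turn gave 534 to 579 regions, intronic shares from 19.7% to 21.5%, shares in both replicates from 58.6% to 59.9%, and GC contents from 39.3% to 40.4%. The lower shares in both replicates follow from the construction, since such a list was ranked by 1 replicate alone. Replicate summits within 50 bp of each other were found for 54.2% of regions. ACGCAG lay within 25 bp of 1.495% and within 100 bp of 5.61% of summits, as wider windows hold more words. Counting the first intron of any transcript gave 32.9%. The cause of the other moves was not tested. No paired analysis was possible because the study holds 1 group. Merging summits within 200 bp moved no value beyond the spread. Unknown read depth limits every signal, and the 21 regions on the thresholded list limit every share among them.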
